A study of Triticum aestivum with 12 samples.

Results

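The response of the shoot apex of winter wheat to vernalization was taken from 4 RNA-seq libraries, 2 of shoot apex before the cold and 2 of vernalized shoot apex, of 12 libraries in the series. The members are all libraries whose tissue label is shoot apex, chosen by label and not by any measured value. The plants were hexaploid bread wheat (Triticum aestivum), cultivar AK58, in every group, with no transgene or mutation. Before vernalization they were grown for 2 weeks with 16 h of light at 22 °C and 8 h of dark at 19 °C. For the vernalized group, seedlings that had grown for 14 days were held for 1 month at 4 °C with the same light period and returned to the greenhouse for 1 day. The vernalized apices were therefore also older, and none of the groups had that age without the cold, so cold and age cannot be told apart. Each apex library is bulk tissue cut out under a microscope, in which fewer cells of a type and less RNA per cell cannot be told apart. The remaining 8 libraries, of leaf and axillary bud under the same treatments, were used to estimate the spread between replicates and to set the apex response beside that of other tissues.

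The shoot apex carries the stem cells of the shoot, and it forms leaves until it is converted to an inflorescence meristem and forms the spike. In winter wheat this conversion requires a long period of cold. The MADS-box gene VRN1 is induced in the cold and promotes flowering, VRN2 is a repressor of flowering, and VRN3, the FT-like gene of cereals, encodes a mobile signal that moves from leaf to apex. A second route depends on age. As a plant ages the level of the microRNA miR156 falls, and its targets among the SPL transcription factors (Squamosa Promoter Binding Protein-Like) are released. SPL proteins bind DNA at a short GTAC core and activate flowering genes in the apex. The identifiers of the deposited tables were paired with gene names only for 53 SPL genes and no entry of the reference at hand matched them (0 matches), so that the VRN genes could not be looked up and all other genes are given by identifier. In these identifiers the characters after TraesCS give the chromosome and the sub-genome (A, B or D), U marks an unplaced gene, and the last digits run along the chromosome.

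Expression was given as TPM, a transcript level normalized for gene length and library size that keeps no trace of the number of reads. Between 41519 and 48153 genes were above 1 TPM in each apex library, and 31943 of 107891 listed genes were at 0 in all 4 of them. The replicate numbers shared a shift. Both libraries numbered 1 had more genes above 1 TPM (48153 before and 46085 after) than both libraries numbered 2 (42850 and 41519). A list of 741 genes preferred in axillary bud over leaf made up 28.9% and 38.4% of the TPM in shoot apex replicates 1 and 2, and 33.2% and 42.2% in the vernalized replicates 1 and 2. It was thus higher in both replicates numbered 2. The groups before and after vernalization overlapped, and within each same-numbered pair the share was higher after it. The median absolute difference between replicates on the log2(TPM + 1) scale was 0.40 before and 0.33 after, larger than the median absolute change within the replicate 1 pair (0.20) or the replicate 2 pair (0.15). Changes were therefore also taken within each pair of libraries with the same number. Nothing in the labels says whether replicates came from separate plants, so p-values measure only the spread between these libraries.

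TaSPL14 and TaSPL6 are examples of genes with a large difference between replicates. Of the 46 tested SPL genes, replicate 1 was above replicate 2 in 39 before vernalization and in 32 after it. TaSPL14D (TraesCS7D02G248000) was at 28.5 TPM in replicate 1 and 10.7 TPM in replicate 2 before vernalization, and at 29.1 and 13.4 TPM afterwards. TaSPL14B (TraesCS7B02G142200) was at 26.0 and 10.2 TPM before and at 27.0 and 12.1 TPM after. For TaSPL6A (TraesCS4A02G359500) the values were 13.9 and 5.72 TPM before and 14.05 and 6.50 TPM after. In each of these 3 genes replicate 1 exceeded replicate 2 by 2.16 to 2.66 times in both states. The groups before and after overlapped, and within the same-numbered pairs each gene was slightly higher after vernalization, with log2 changes of 0.01 to 0.30.

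A small part of the tested genes differed in level in the shoot apex after vernalization, and more of them fell than rose. The tested genes are those with a mean above 1 TPM in any group, leaf and axillary bud included. In the limma fit of log2(TPM + 1), 675 of 60326 tested genes (1.12%) were called induced and 1473 (2.44%) repressed. The thresholds were those of the study, more than 2-fold with p below 0.01 before any adjustment. The study applied them to read counts with DESeq2, an unlike measure, so its numbers of genes cannot be set directly beside these. When p was first adjusted for all tested genes by Benjamini-Hochberg, with 0.05 as the limit, 598 genes (0.991%) were induced and 1285 (2.13%) repressed. The change exceeded 2-fold upward in both same-numbered pairs for 520 tested genes (0.862%) and downward for 1133 (1.88%). The genes that were called, moved over 2-fold in both pairs and had both vernalized libraries beyond both others numbered 512 induced (0.849%) and 1102 repressed (1.83%), which were 75.9% of the induced calls and 74.8% of the repressed calls. In no called gene did the pairs move in opposite directions (0 induced and 0 repressed), which a call from the same libraries nearly fixes. Across the tested genes, Pearson's r between the changes of the replicate 1 pair and the replicate 2 pair, which share no library, was 0.754, a description because genes are not independent.

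**Figure D1:**
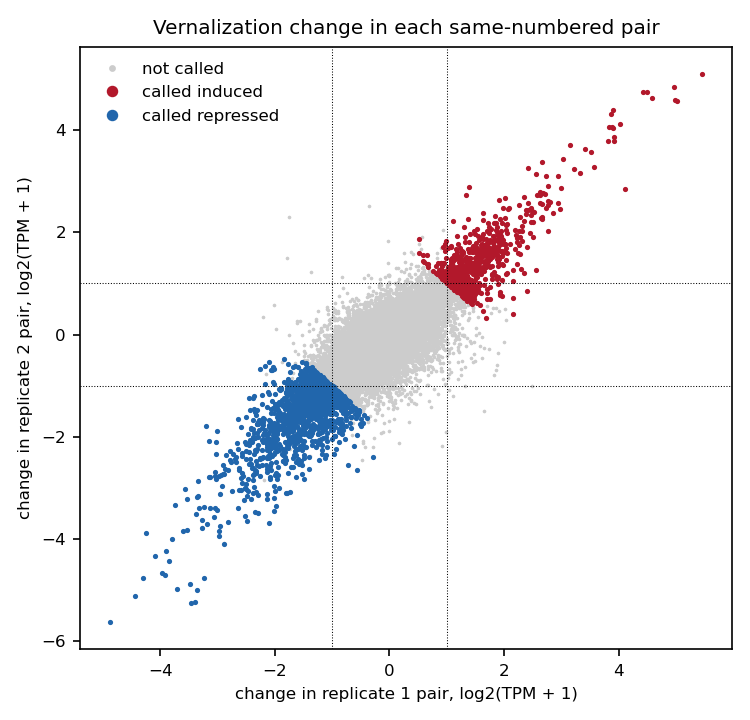
Change of each of the 60326 tested genes on the log2(TPM + 1) scale in the replicate 1 pair (horizontal axis) against the replicate 2 pair (vertical axis), with the 675 genes called induced in red, the 1473 called repressed in blue and 2-fold marked by dotted lines. The called genes lie in the upper right and lower left corners, with changes of the same sign in both pairs, as the calling nearly fixes.

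How many genes passed depended on the spread used. The 4 apex libraries fitted alone by limma, with their own spread, gave 426 induced and 913 repressed calls, of which 417 and 887 were among those above, and 0 of either after adjustment (smallest adjusted p = 0.113). At an unadjusted p-value under 0.05 and over 2-fold this fit held 662 induced and 1443 repressed genes. When limma weighted the libraries by the spread of their group, the apex libraries had weights of 0.398 before and 0.597 after, against 0.59 to 3.658 in the other groups, and 299 induced and 570 repressed genes passed the adjusted threshold. Groups of 2 against 2 allow no permutation p-value below 0.333. The adjusted p-values given below for single genes come from the fit of all 12 libraries unless another fit is named. In that fit, groups in which a gene was listed at 0 added no spread.

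Median levels of the called genes lay between 1.21 and 7.57 TPM in shoot apex before and after vernalization. The median of the group means of the induced genes rose from 1.93 TPM in shoot apex to 7.57 TPM in vernalized shoot apex, and that of the repressed genes fell from 5.61 to 1.21 TPM. Summed over the 675 induced genes, the level was 5255 and 5072 TPM before and 18438 and 17489 TPM after. The 1473 repressed genes summed to 30323 and 33453 TPM before and to 9510 and 8338 TPM after. The replicates of a state lay close to each other in these sums and the states did not overlap, as the choice of the genes fixes. In 29 induced genes both libraries before vernalization were listed at 0, and in 59 repressed genes both libraries after it. The median log2 fold change was 1.35 for induced and -1.39 for repressed genes, and 93 induced and 250 repressed genes changed by over 4-fold on the log2(TPM + 1) scale, which understates the change of low genes.

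Among the SPL genes, the only genes with a name here, TaSPL2 had the strongest induction. All 3 homoeologues were near 0 before vernalization and well expressed after it. Some genes without a name rose more, such as TraesCS6B02G316600 and TraesCS5A02G391700 (log2 fold changes 5.28 and 4.79). No names were at hand for these genes, so whether a VRN gene was among them was not determined here. TaSPL2B (TraesCS2B02G250900) was at 0.239 and 0.265 TPM in shoot apex and at 25.5 and 32.8 TPM in vernalized shoot apex. TaSPL2A (TraesCS2A02G232400) was at 0.218 and 0.222 TPM before and at 16.9 and 19.4 TPM after. TaSPL2D (TraesCS2D02G232800) was at 0.0878 and 0.0608 TPM before and at 15.2 and 16.4 TPM after. Both vernalized libraries were far above both others in each homoeologue. The log2 fold changes were 4.58 for TaSPL2B (standard error 0.23, adjusted p = 7.34e-07), 3.97 for TaSPL2A (standard error 0.18, adjusted p = 3.03e-07) and 3.97 for TaSPL2D (standard error 0.16, adjusted p = 1.00e-07). Within the pairs TaSPL2B changed by 4.42 and 4.74, TaSPL2A by 3.88 and 4.06 and TaSPL2D by 3.90 and 4.04. The summed level of the 3 homoeologues rose from 0.545 and 0.548 TPM to 57.6 and 68.6 TPM, the largest sum of any SPL number in vernalized replicate 2, while TaSPL14 had 68.7 TPM in replicate 1 and 32.0 TPM in replicate 2. Reads from near-identical homoeologues may have been divided between them by the counting, so the share of each is less certain than the sum.

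TaSPL2 was low in the other tissues. TaSPL2B was at 1.14 and 2.29 TPM in axillary bud and at 3.37 and 2.80 TPM in vernalized axillary bud. TaSPL2A and TaSPL2D did not exceed 1.07 TPM in any axillary bud or leaf library. The response in shoot apex exceeded that in axillary bud by 3.96 for TaSPL2B, 3.53 for TaSPL2A and 3.35 for TaSPL2D on the log2 scale (adjusted p = 8.40e-06, 3.00e-06 and 1.32e-06 from limma). Such a difference of responses passed an adjusted p-value under 0.05 in 18.2% of all tested genes. TaSPL2 is described here for its large apex change, which is part of this difference.

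Of the 53 SPL genes listed by the study, 46 passed the filter and 11 of these (23.9%, against 1.12% of all tested genes) were called induced, while 0 were called repressed. The median log2 fold change over the 46 was 0.33, against -0.06 over all tested genes, and 38 of the 46 were above 0. After adjustment 10 of the 11 were past the threshold. At an unadjusted p-value under 0.05 alone, 19 were higher and 0 lower after vernalization. The 7 genes that did not pass the filter stayed at or below 0.883 TPM in all apex libraries.

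After TaSPL2, the largest SPL change was in TaSPL7D, and all 3 homoeologues of TaSPL7 were called. TaSPL7D (TraesCS5D02G273900) was at 2.55 and 3.01 TPM before vernalization and at 12.8 and 13.0 TPM after, with changes of 1.96 and 1.81 in the pairs. TaSPL7B (TraesCS5B02G265600) was at 3.06 and 2.41 TPM before and at 8.47 and 8.30 TPM after. TaSPL7A (TraesCS5A02G265900) was at 4.71 and 3.45 TPM before and at 10.7 and 8.40 TPM after, and its adjusted p-value was 0.111. In all 3 the vernalized libraries were above the others, and the sum of the homoeologues went from 10.3 and 8.87 TPM to 31.9 and 29.7 TPM.

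The other called SPL genes had log2 fold changes of 1.01 to 1.19 on the log2(TPM + 1) scale, which compresses low levels, and their mean TPM were 2.26 (TaSPL5A) to 4.09 (TaSPL13B) times higher after vernalization. TaSPL13B (TraesCS7B02G144900) was at 0.715 and 0.704 TPM before and at 3.24 and 2.56 TPM after (log2 fold change 1.19, standard error 0.17, adjusted p = 0.00167). TaSPL13D (TraesCS7D02G245200) was at 1.53 and 1.00 TPM before and at 4.40 and 3.59 TPM after (1.15, standard error 0.23, adjusted p = 0.014). TaSPL3A (TraesCS2A02G413900) was at 1.14 and 0.925 TPM before and at 3.37 and 3.60 TPM after (1.15, standard error 0.19, adjusted p = 0.00419). The groups did not overlap in any of these, nor in TaSPL5. TaSPL5D (TraesCS3D02G425800) was at 6.36 and 4.29 TPM before and at 14.1 and 10.3 TPM after, and TaSPL5A (TraesCS3A02G432500) at 4.56 and 3.49 TPM before and at 10.1 and 8.06 TPM after (log2 fold changes 1.06 and 1.01, adjusted p = 0.0205 and 0.0238). The 35 tested SPL genes that were not called had log2 fold changes between -0.26 and 0.88 on the same scale. The mean TPM of TaSPL3D, TaSPL8A and TaSPL5B among them was 2.56, 2.14 and 2.05 times higher after vernalization. The rest of them changed by less than 2-fold in mean TPM.

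**Figure D2:**
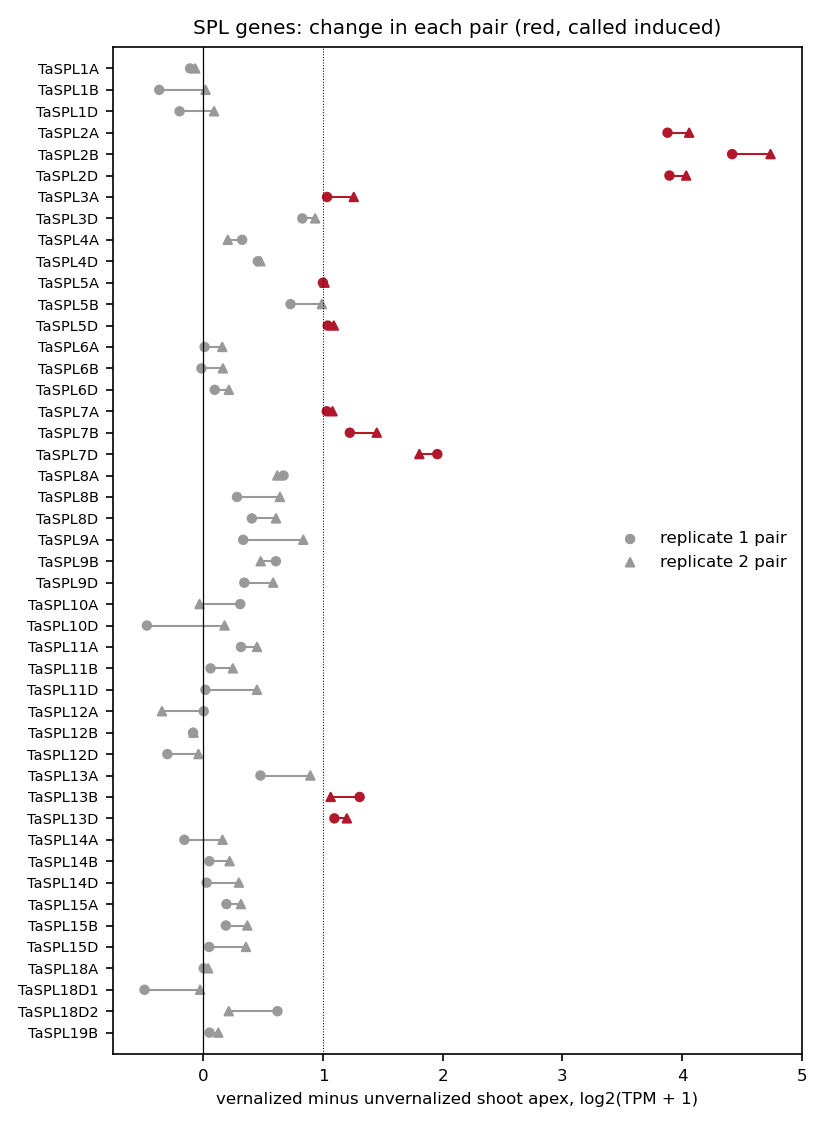
Change after vernalization of the 46 tested SPL genes in shoot apex on the log2(TPM + 1) scale, with a circle for the replicate 1 pair, a triangle for the replicate 2 pair, red for the 11 genes called induced and a dotted line at 2-fold. The homoeologues of TaSPL2 lie apart from the rest at 3.88 to 4.74.

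Which SPL genes were called depended on the spread assigned to the apex libraries. In the fit of the 4 apex libraries alone 6 of the 11 were called (TaSPL2A, TaSPL2B, TaSPL2D, TaSPL7B, TaSPL7D and TaSPL13B), and without shoot apex replicate 2 the number called was 7. With libraries weighted by group 10 were called, of which 4 passed the adjusted threshold.

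Among all genes, the 12 induced genes with the largest change in the weaker of the pairs included the 3 homoeologues of TaSPL2. Their weaker pair changes ran down to 3.868 in TraesCS7A02G078800, and TraesCS2B02G329000, just outside the list, had 3.865. The list was chosen by these changes, so its size of change is a description. Of the 12, 4 were listed at 0 in both libraries before vernalization. TraesCS6B02G316600 was listed at 0 in both and reached 43.1 and 33.0 TPM after vernalization, and it was listed at 0 in all 8 leaf and axillary bud libraries. TraesCS6D02G268000 was listed at 0 in both and reached 23.0 and 23.8 TPM. It was at 0.102 TPM in axillary bud replicate 1 and listed at 0 in the other libraries of leaf and axillary bud.

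Chromosome group 2, with 17.9% of all induced calls, held 5 of the 12, the homoeologues of TaSPL2 and a pair on 2A and 2D. TraesCS2A02G312200 was listed at 0 in both libraries before and was at 21.5 and 25.7 TPM after vernalization, and TraesCS2D02G310500 was listed at 0 before and was at 13.9 and 19.9 TPM after. TraesCS4D02G334800 was at 0 and 0.0282 TPM before and at 30.6 and 23.9 TPM after. In axillary bud and leaf these 3 genes stayed below 1 TPM in every library. Their adjusted p-values in shoot apex were 2.45e-08, 3.51e-06 and 2.26e-08 in the limma fit of all 12 libraries. That fit shares its spread with the leaf and axillary bud libraries, where these genes were nearly absent. In the limma fit of the apex libraries alone the adjusted p-value of each was 0.113.

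The remaining 4 named induced genes were also expressed in vernalized axillary bud. TraesCS5A02G391700 was at 0.147 and 0.157 TPM in shoot apex and at 36.1 and 26.5 TPM after vernalization (log2 fold change 4.79, standard error 0.21, adjusted p = 1.68e-07). In axillary bud it was at 0.0285 and 0.0233 TPM before and at 25.8 and 25.8 TPM after, and the difference of the responses was 0.08 (adjusted p = 0.892). TraesCS1D02G412300 was at 0.505 and 0.270 TPM before and at 46.3 and 35.4 TPM after in shoot apex, and at 0.598 and 0.624 TPM before and 24.4 and 20.6 TPM after in axillary bud. In leaf it was at 1.43 and 12.01 TPM before and listed at 0 after. Both genes were called induced in both tissues, and in neither did the responses differ past the threshold.

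TraesCS4A02G400600 was at 0.0286 and 0.0226 TPM in shoot apex and at 15.6 and 16.7 TPM after vernalization, and it reached 3.77 and 2.99 TPM in vernalized axillary bud. TraesCS7A02G078800 was at 0.284 and 0.112 TPM before, at 18.5 and 15.2 TPM after, and at 1.72 and 1.73 TPM in vernalized axillary bud. Both were called induced in both tissues and rose more in shoot apex, by 2.15 and 2.68 on the log2 scale (adjusted p = 3.93e-04 and 3.01e-05 from limma). They were picked for their apex change, which is part of this difference, so these p-values are a description. After median-of-ratios scaling the axillary bud call of TraesCS7A02G078800 was lost, so that 3 of the 12 were called in axillary bud in place of 4.

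**Figure D3:**
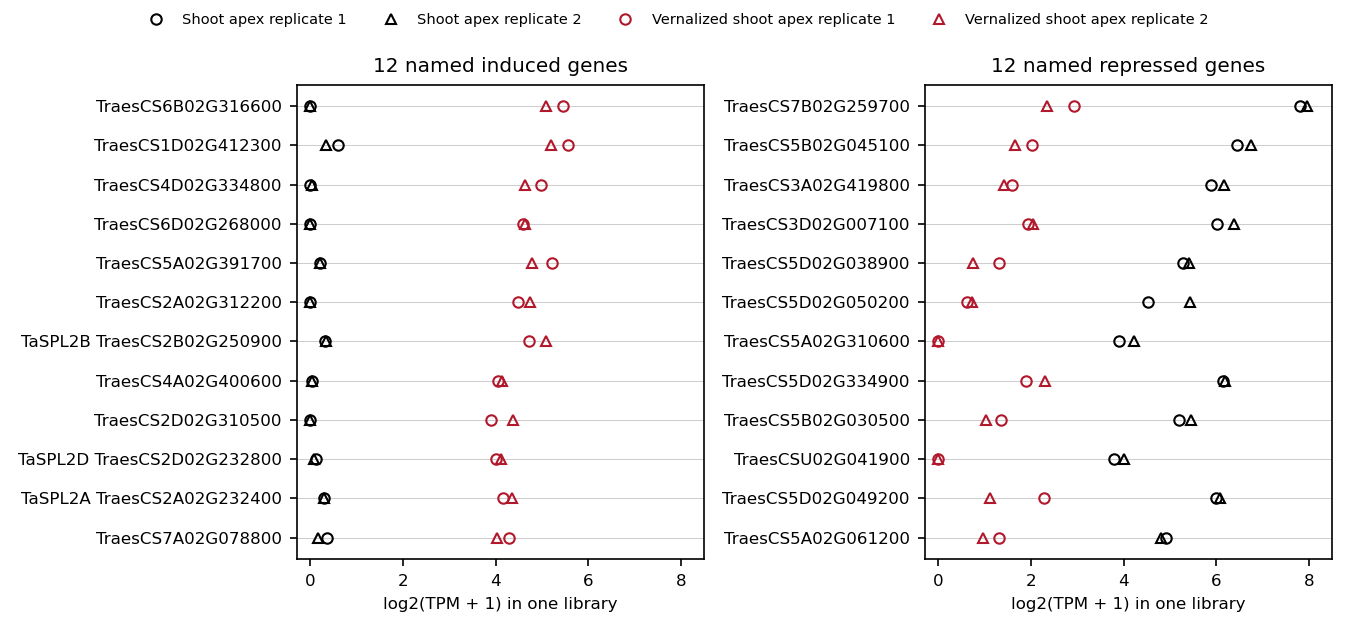
Level of the 12 named induced genes (left) and the 12 named repressed genes (right) in each of the 4 shoot apex libraries on the log2(TPM + 1) scale, black before and red after vernalization, circles for replicate 1 and triangles for replicate 2. No gene has overlapping groups, and 4 induced genes before and 2 repressed genes after vernalization lie at 0 in both libraries.

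The named repressed genes were well expressed in shoot apex and fell to a few TPM or to 0. TraesCS7B02G259700 was at 223 and 247 TPM before vernalization and at 6.62 and 4.05 TPM after, a mean 44.0 times lower (log2 fold change -5.25, standard error 0.34, adjusted p = 4.09e-06). TraesCS5B02G045100 was at 86.4 and 107 TPM before and at 3.03 and 2.14 TPM after, a mean 37.5 times lower (adjusted p = 3.95e-06). TraesCS3A02G419800 was at 58.5 and 71.0 TPM before and at 2.01 and 1.66 TPM after (adjusted p = 8.15e-05). These 3 genes had the opposite response in axillary bud, where they were called induced.

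In axillary bud TraesCS7B02G259700 went from 0.935 and 0.383 TPM to 14.2 and 23.4 TPM, and TraesCS5B02G045100 from a listed 0 in both libraries to 9.84 and 8.22 TPM. TraesCS3A02G419800 went from a listed 0 to 4.50 and 3.08 TPM there, and in leaf from 0 and 2.39 TPM to 28.7 and 22.4 TPM. The vernalized axillary bud stayed far below the unvernalized shoot apex in each of them.

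Of the 12 named repressed genes, 8 carry identifiers of chromosome group 5, which held 16.2% of the tested genes and 17.2% of all repressed calls. TraesCS5D02G050200 was at 22.0 and 42.2 TPM before and at 0.528 and 0.652 TPM after. TraesCS5D02G049200, also on 5D, was at 62.7 and 66.9 TPM before and at 3.86 and 1.17 TPM after. TraesCS5D02G334900 was at 69.5 and 72.5 TPM before and at 2.71 and 3.96 TPM after. All 3 were called induced in axillary bud, where they reached at most 7.39 TPM after vernalization, and their groups in shoot apex did not overlap.

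TraesCS5D02G038900 was at 38.0 and 41.8 TPM before and at 1.49 and 0.681 TPM after, and TraesCS5B02G030500 at 35.8 and 42.7 TPM before and at 1.56 and 1.03 TPM after. Both were also expressed in axillary bud, at 13.6 to 26.8 TPM over its 4 libraries for the former and 15.8 to 23.7 TPM for the latter, and neither was called there. TraesCS3D02G007100 was at 64.2 and 81.9 TPM before and at 2.83 and 3.13 TPM after in shoot apex, and at 7.84 to 15.3 TPM in axillary bud. These 3 genes thus fell in shoot apex below their level in axillary bud.

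Both vernalized apex libraries were listed at 0 for TraesCS5A02G310600, which was at 13.96 and 17.8 TPM before, and for TraesCSU02G041900, which was at 12.9 and 15.0 TPM before (adjusted p = 1.00e-07 for both). TraesCS5A02G061200 was at 29.0 and 26.8 TPM before and at 1.48 and 0.935 TPM after in shoot apex. It was also repressed in leaf, where it went from 28.2 and 22.8 TPM to 0.927 and 0.896 TPM. TraesCS5A02G061200 was just inside the list with a weaker pair change of -3.60, and TraesCS1A02G390500, just outside it, had -3.54.

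The response of all 12 named repressed genes differed from that in axillary bud at an adjusted p-value under 0.05, against 18.2% of all tested genes, and the same held for 10 of the 12 named induced genes (11 after median-of-ratios scaling). The genes were picked for their apex change, which is part of this difference, so these counts are a description. In axillary bud 6 of the 12 repressed genes were called induced and 0 repressed. After scaling 6 were still called induced, and TraesCS5A02G061200 passed the threshold for repression. In leaf 5 of the 12 were called induced and 3 repressed, and after scaling 5 and 1. The leaf libraries carry a shift of scale, with a median log2 fold change over all tested genes of -0.90 (axillary bud 0.29, shoot apex -0.06), and 46.2% of all genes were called repressed there and 12.3% induced. The leaf response was therefore not tested against that of the shoot apex.

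**Figure D4:**
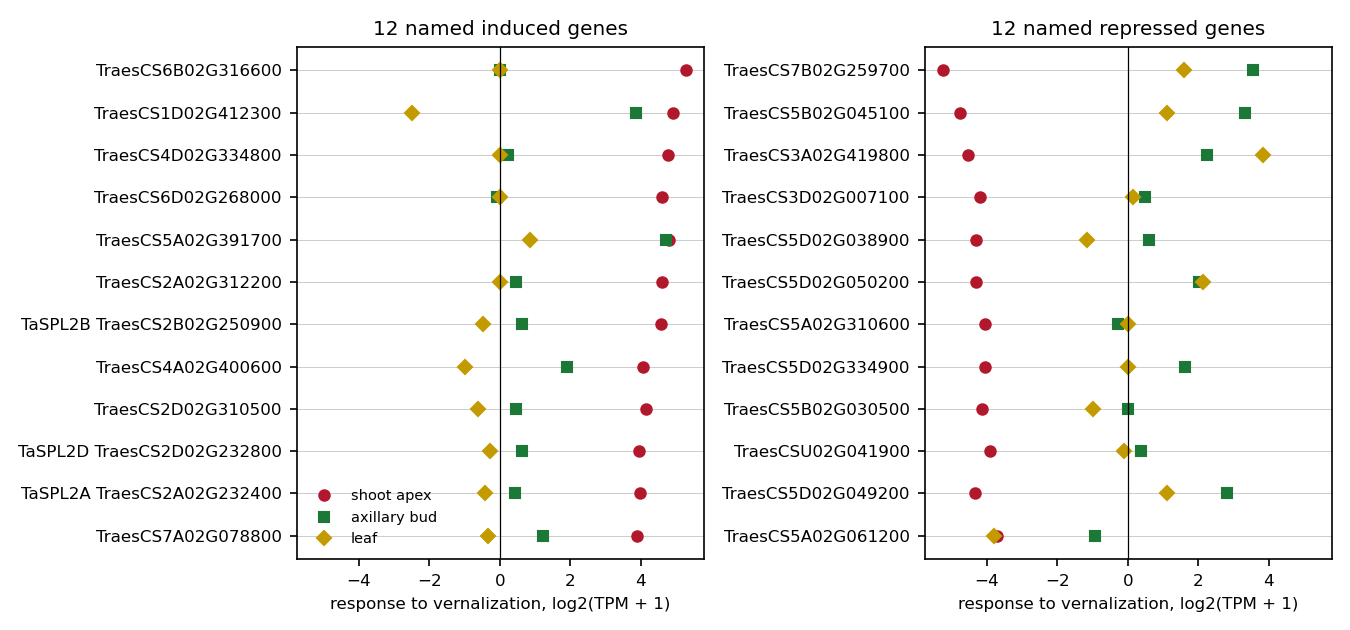
Response to vernalization (vernalized minus unvernalized group mean of log2(TPM + 1)) of the named genes in shoot apex (circles), axillary bud (squares) and leaf (diamonds). Among the induced genes TraesCS5A02G391700 and TraesCS1D02G412300 have an axillary bud response near that in shoot apex, and among the repressed genes 6 were called induced in axillary bud.

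Over all genes called repressed in shoot apex, induction was the more frequent call in axillary bud. Of the 1473 genes repressed in shoot apex, 766 (52%) were called induced in axillary bud, against 11.4% of all tested genes, and 37 (2.51%) were called repressed there, against 3.40%. The 766 genes were 11.1% of the genes called induced in axillary bud. After median-of-ratios scaling, 576 of 1361 repressed genes (42.3%) were called induced in axillary bud, against 6.23% of all tested genes. The median of the group means of the 1473 genes was 0.815 TPM in axillary bud and 4.24 TPM in vernalized axillary bud, and it was 5.61 TPM in shoot apex and 1.21 TPM in vernalized shoot apex. The difference between the apex medians is fixed by the choice of the genes, while that between the axillary bud medians is not. In leaf 467 of the 1473 genes (31.7%, against 12.3%) were called induced and 248 (16.8%, against 46.2%) repressed, and after scaling 43.4% (against 23.1%) and 7.86% (against 17%). The overlap has no test, because genes are not independent.

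The 675 induced genes were called in both directions in axillary bud, 130 (19.3%) induced, against 11.4% of all tested genes, and 116 (17.2%) repressed, against 3.40%. After scaling, 92 of 756 (12.2%, against 6.23%) were called induced there and 120 (15.9%, against 5.31%) repressed. The share called repressed thus departed further from that of all genes under both scales. In leaf 164 (24.3%, against 12.3%) were called induced and 100 (14.8%, against 46.2%) repressed, and after scaling 25.3% (against 23.1%) and 8.07% (against 17%). The median level of these genes was 1.44 TPM in axillary bud, 2.60 TPM in vernalized axillary bud, 0.246 TPM in leaf and 0.103 TPM in vernalized leaf.

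**Figure D5:**
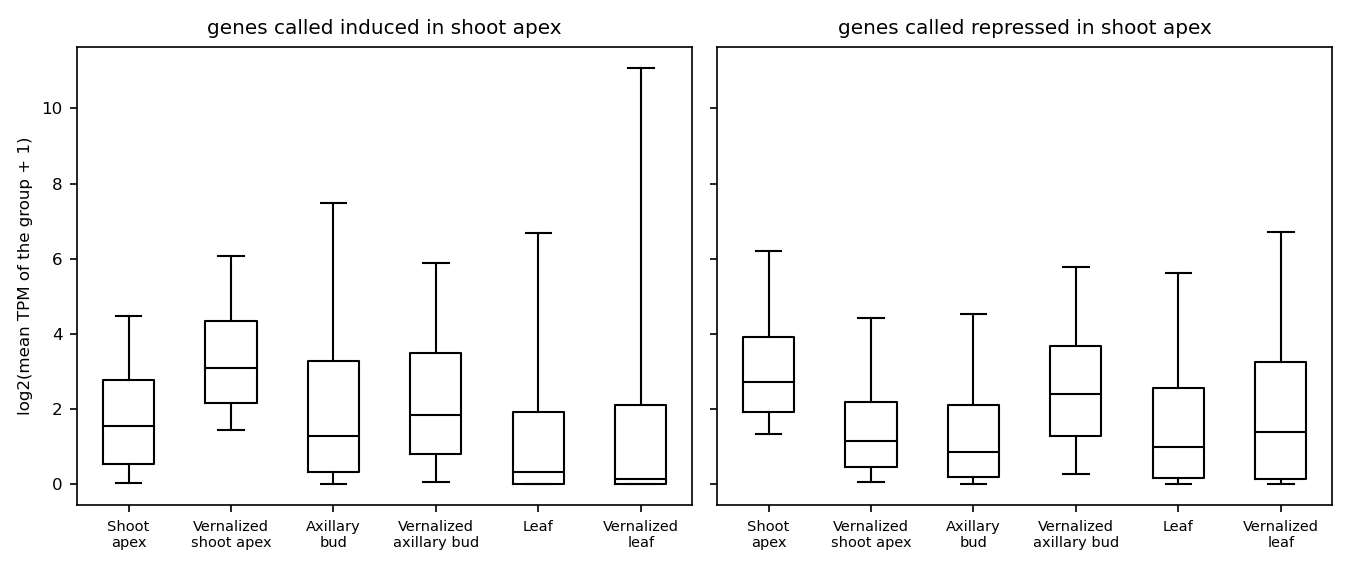
Level of the 675 genes called induced in shoot apex (left) and the 1473 called repressed (right) in the 6 groups, as log2 of the mean TPM of the group plus 1, with the median as a line, quartiles as the box and the 5th and 95th percentiles as whiskers. The median of the repressed genes is 5.61 TPM in shoot apex and 1.21 TPM in vernalized shoot apex, as their choice fixes, and 0.815 TPM in axillary bud and 4.24 TPM in vernalized axillary bud.

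Genes typical of leaf were low in the apex. A list of 319 genes preferred in leaf (mean above 50 TPM in leaf and at least 20 times axillary bud) summed to 1147 and 1090 TPM in shoot apex and to 762 and 680 TPM in vernalized shoot apex, against 242873 and 145048 TPM in leaf. Of these genes, 28 (8.78%, against 2.44% of all tested genes) were called repressed and 1 (0.313%, against 1.12%) induced. The median log2 fold change was -0.02, against -0.06 over all tested genes, and 40 were listed at 0 in all 4 apex libraries. The lower sum rested in part on TraesCS4A02G107100, from 110 and 115 TPM to 10.8 and 10.2 TPM, which made up 102 of the 398 TPM by which the sum was lower. Without the list 1445 genes were called repressed. Of the 741 genes preferred in axillary bud, 12 (1.62%, against 1.12%) were called induced and 11 (1.48%, against 2.44%) repressed. The part of leaf tissue in the apex response was not tested beyond these values.

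The called genes were spread over the 3 sub-genomes and over all chromosomes. The share of tested genes called induced was 1.1% on A, 1.05% on B and 1.21% on D, and the share called repressed was 2.43%, 2.35% and 2.51%. Between chromosomes the induced share ran from 0.791% on 1B to 1.4% on 4D and the repressed share from 1.54% on 1B to 2.8% on 7A. Among the 707 tested unplaced genes, 8 were called induced and 24 (3.39%) repressed.

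No triad held calls in both directions (0 of 79). The part of the study's table of triads, sets of 3 homoeologues, that was at hand listed 1998 triads, all of them of chromosome groups 4 and 5, of which 79 held a called gene. Of 4424 tested genes in these triads, 0.859% were called induced and 1.92% repressed, against 1.12% and 2.44% of all tested genes. In 26 triads a homoeologue was called induced, with 1 call in 16 triads, 2 calls in 6 and 3 calls in 4. In 53 triads a homoeologue was called repressed, with 1 call in 28 triads, 2 in 15 and 3 in 10. The triads with 1 call could not show opposite directions. None of the 24 named genes was in this part of the table (0 of 12 induced and 0 of 12 repressed).

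The highest level among the triads with all 3 homoeologues repressed was that of TraesCS4A02G224300, which was at 497 and 465 TPM before and at 165 and 119 TPM after. Its homoeologue TraesCS4D02G088800 was at 224 and 271 TPM before and at 85.4 and 73.7 TPM after, and TraesCS4B02G091800 at 100.03 and 128 TPM before and at 52.3 and 49.96 TPM after. All 3 were lower in both vernalized libraries, with log2 fold changes of -1.77, -1.62 and -1.13 (adjusted p = 0.00309, 0.00156 and 0.0149). The call of TraesCS4B02G091800 was lost without shoot apex replicate 2 and without both replicates numbered 2.

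Among the triads with all 3 homoeologues induced, TraesCS4A02G226900 was at 4.61 and 7.22 TPM before and at 26.7 and 32.4 TPM after. TraesCS4B02G089500 was at 5.39 and 6.90 TPM before and at 23.0 and 25.6 TPM after, and TraesCS4D02G086400 at 5.22 and 6.85 TPM before and at 28.2 and 28.0 TPM after. The 3 homoeologues had nearly the same level in each state, and their log2 fold changes were 2.17, 1.83 and 2.06 (adjusted p = 0.00112, 0.0017 and 0.00104). In axillary bud they changed in the opposite direction, by -2.30, -2.29 and -2.10. In leaf, where they were at 75.5 to 144 TPM before and at 2181.6 to 3541 TPM after vernalization, they rose by 4.53 to 4.75, and the part of leaf tissue in their apex values was not tested.

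Called genes also lay next to each other. Of the 948 repressed genes whose next gene on the chromosome was tested, 149 (15.7%) had a next gene that was also repressed, against 2.4% over all tested genes, and of the 436 such induced genes 30 (6.88%) had an induced next gene, against 1.08%. The repressed genes formed 116 runs and the induced genes 29 runs of at least 2 genes. Neighbours with near-identical sequence may share reads, which was not tested.

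The longest runs held 5 repressed genes, on 5A and on 5D. On 5A the run from TraesCS5A02G310400 to TraesCS5A02G310800 contained TraesCS5A02G310600, described above, and TraesCS5A02G310500, which was at 25.2 and 25.8 TPM before and at 3.76 and 2.20 TPM after. The other 3 genes of this run were at 1.15 to 4.97 TPM before and listed at 0 in both libraries after. On 5D the run from TraesCS5D02G317100 to TraesCS5D02G317500 contained TraesCS5D02G317400, at 37.9 and 41.5 TPM before and at 6.54 and 4.37 TPM after, and TraesCS5D02G317100, at 25.0 and 24.5 TPM before and at 4.09 and 1.31 TPM after. This run was broken under 5 alternatives, in which TraesCS5D02G317200 lost its call: the apex libraries alone, with and without a replicate block, and without shoot apex replicate 2, vernalized shoot apex replicate 2 or both. The longest induced run held 3 genes, TraesCS3D02G515900 to TraesCS3D02G516100, whose summed mean level went from 1.14 to 8.32 TPM, and TraesCS3D02G516100 was not called in the apex libraries alone. TaSPL7D was 1 of a pair of induced neighbours with TraesCS5D02G273700, and the named gene TraesCS5A02G391700 formed a pair with TraesCS5A02G391800. The named repressed gene TraesCS5D02G334900 began a run of 3, whose summed mean level went from 114 to 6.45 TPM. TraesCS5D02G050200, also named, formed a repressed pair with TraesCS5D02G050100, from 105 to 3.85 TPM.

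The most abundant transcripts of the apex did not pass the test. TraesCS1D02G034800 was at 5703 and 10145 TPM before and at 4705 and 5921 TPM after (log2 fold change -0.53, adjusted p = 0.883). TraesCS4B02G020300 was at 5189 and 4997 TPM before and at 5171 and 3268 TPM after, and TraesCS4D02G018500 at 4803 and 4744 TPM before and at 4706 and 3312 TPM after. The vernalized replicate 2 was the lowest of the 4 libraries in both, while replicate 1 hardly differed between the states.

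The next 3, TraesCS5B02G356200, TraesCS1B02G378400 and TraesCS6B02G078200, had levels between 2795 and 5257 TPM, with log2 fold changes of 0.37, 0.26 and 0.23 and adjusted p-values of 1. In each of them replicate 2 exceeded replicate 1 in both states. TraesCS3D02G401300, a gene that the study names by identifier, was at 35.4 and 17.3 TPM before and at 32.2 and 16.7 TPM after in shoot apex. Its groups overlapped, and the difference between replicates was larger than the change (log2 fold change -0.09, adjusted p = 1).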

How the data were processed

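Transcript levels before and after vernalization were taken from 12 RNA-seq libraries of AK58 wheat, 2 per tissue and treatment. All values used are TPM as computed and deposited by the authors. According to the submitters' processing notes, reads were trimmed with fastp 0.21.0, and HISAT2, SAMtools 1.3.1, featureCounts and DESeq2 were used. The study's methods name TPMCalculator for the TPM values and IWGSC RefSeq v1.0 as the genome. Read counts were not used here, the depth behind a TPM value is unknown, and no counting interval can be given.

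A gene was tested where any group mean exceeded 1 TPM (60326 of 107891). A mean per group was estimated from log2(TPM + 1) of all 12 libraries by a linear model in limma 3.58.1 in R 4.3.3, with a variance trend and no term for the replicate number. All tests are two-sided. A call needed p below 0.01 without adjustment and more than 2-fold, and adjusted p-values are Benjamini-Hochberg values over all tested genes. The script was tested on simulated data. Pair changes compare libraries of the same replicate number and carry no test.

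Named genes are the 12 induced and 12 repressed genes called, not overlapping and over 2-fold in both pairs, with the largest change in the weaker pair, the SPL genes and TraesCS3D02G401300 named by the study, and the 6 genes with the highest mean TPM. TraesCS4A02G107100, the triads and the neighbouring genes given with values were chosen after their values were seen. The same holds for the TaSPL14 and TaSPL6 genes shown for their difference between replicates. Members, lists and tests were chosen with earlier results of these data known. Leaf-preferred genes had a mean above 50 TPM in leaf and at least 20 times that of axillary bud plus 1, and bud-preferred genes a mean above 10 TPM and at least 20 times that of leaf plus 1. The alternatives were another pseudocount, other filters, the apex libraries alone, replicate blocks, median-of-ratios scaling, no trend, library weights, the adjusted p-value and leaving out libraries. Leaving out both replicates of a number, or the leaf-preferred genes, was added after seeing the data.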

Additional observations from a re-analysis of the deposited data

Results flagged for a closer look

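The response to vernalization differed between shoot apex and axillary bud, by the limma test of the difference at an adjusted p-value under 0.05, in the following genes named above. The named induced and repressed genes were chosen for their apex change, which is part of this difference. Values are the apex response minus the axillary bud response on the log2(TPM + 1) scale. Among the induced genes the difference was 5.28 for TraesCS6B02G316600, 4.57 for TraesCS4D02G334800, 4.68 for TraesCS6D02G268000, 4.15 for TraesCS2A02G312200 and 3.69 for TraesCS2D02G310500, none of which was called in axillary bud. It was 2.15 for TraesCS4A02G400600 and 2.68 for TraesCS7A02G078800, which rose in both tissues.

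Among the SPL genes the difference was 3.96 for TaSPL2B, 3.35 for TaSPL2D, 3.53 for TaSPL2A, 1.00 for TaSPL7B and 1.01 for TaSPL13B. It was 0.75 for TaSPL10A, which stayed at or below 0.290 TPM in all apex libraries and went from 0.823 and 1.27 TPM to 0.354 and 0.309 TPM in axillary bud. It was -0.75 for TaSPL15D, at 0.967 and 0.602 TPM before and 1.03 and 1.05 TPM after in shoot apex, and at 0.382 and 0.417 TPM before and 1.59 and 1.83 TPM after in axillary bud.

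All 12 named repressed genes differed. The largest differences were -8.81 for TraesCS7B02G259700, -8.09 for TraesCS5B02G045100, -7.16 for TraesCS5D02G049200, -6.78 for TraesCS3A02G419800, -6.34 for TraesCS5D02G050200 and -5.69 for TraesCS5D02G334900, the 6 genes called induced in axillary bud. The others were -4.93 for TraesCS5D02G038900, -4.69 for TraesCS3D02G007100, -4.28 for TraesCSU02G041900, -4.15 for TraesCS5B02G030500, -3.81 for TraesCS5A02G310600 and -2.78 for TraesCS5A02G061200.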

How the results depend on the processing

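The 24 named genes of both directions kept their calls under every alternative that was run. They were chosen for the largest changes in the same libraries, so this was nearly fixed by their choice. In the limma fit of the apex libraries alone their smallest adjusted p was 0.113. A pseudocount of 0.1 gave 2597 repressed calls in place of 1473, and 1124 and 2929 genes over 2-fold up and down in both pairs in place of 520 and 1133. The apex libraries alone gave 426 induced, 913 repressed and 6 SPL calls, with fewer degrees of freedom. Leaving out each apex library in turn, or both of a number, gave 556 to 776 induced calls, 1241 to 1931 repressed calls and 7 to 14 SPL calls, with a lone library assumed to vary like the other groups. The other alternatives stayed within 1.5 times of the counts. Of the 11 SPL calls, 5 were tested and called under every alternative (TaSPL2A, TaSPL2B, TaSPL2D, TaSPL7B and TaSPL7D), TaSPL13B was lost only by not passing the filter at 5 TPM, and TaSPL7A was lost under the most. Among genes not called, the log2 fold change of TraesCS3D02G401300 turned from -0.09 to 0.015 after median-of-ratios scaling. Without the same libraries it ranged from -0.583 to 0.409 for TraesCS3D02G401300, from -0.640 to 0.022 for TraesCS4B02G020300, from -0.002 to 0.463 for TraesCS6B02G078200, from -0.500 to 0.769 for TaSPL14B, from -0.503 to 0.827 for TaSPL14D and from -0.492 to 0.660 for TaSPL6A.

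With a replicate block across all libraries 674 genes were called induced, 1489 repressed and 11 SPL genes induced, with a replicate block within each tissue 671, 1487 and 11, and in the apex alone with a replicate block 582, 1236 and 11. The correlation across tested genes of the difference between replicates before and after vernalization was 0.742, but with 2 pairs it does not show that the numbers pair the libraries. TPM hold no counts, so low levels and a listed 0 cannot be given a detection limit.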
